A study of Homo sapiens with 6 samples.

Results

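The ABC (ATP-binding cassette) transporters were examined in HT29 cells, an established human line from a colorectal adenocarcinoma, after 24 h with a polyphenolic cocoa extract. The members are the genes whose symbol has the form ABC, a subfamily letter from A to G and a number, each read by at least 1 probe set that carries no other symbol, and 42 of the 19775 genes on the array met that rule. The 3 cocoa cultures received 500 µg of the extract (no volume given), and the 3 control cultures are titled untreated while the protocol states saline. All 6 grew in F12 medium with 7% serum and were read on 1 Affymetrix array each. Every probe set in the deposited log2 table has a median of 0 over the arrays, so a value shows how far an array lies above or below the middle of the 6 and gives no level. In RNA from whole cultures, a change per cell and a change in the mix of cells cannot be told apart. Which of the transporters HT29 cells express at all, and the identity of the cells from defining markers, could therefore not be read from the table. Of 10 colon epithelial markers 1 was higher with cocoa and 9 did not pass, beside 7.36% of all genes called higher. The marker that rose was CDH17 (log2 difference 0.56, limma adjusted p = 0.0126). Of the 10, 9 had a difference above 0, as did 9184 of all 19775 genes. In 4 of the 10 every cocoa array lay above every control, against 15.4% of all genes. Of 14 measured markers of fibroblasts, leukocytes and endothelium 0 passed (smallest limma adjusted p = 0.288), against 13.5% of all genes.

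ABC proteins bind and hydrolyse ATP in paired nucleotide-binding domains, and most use that energy to move a substrate across a membrane. The letter follows the protein's relatives: the A and G subfamilies hold many lipid exporters, B holds P-glycoprotein and several transporters of the mitochondrial membrane, C holds the multidrug resistance proteins that export conjugates, and D holds transporters of the peroxisome and lysosome. The E and F members have no membrane part and work on the ribosome. In the intestinal epithelium ABC pumps set how much of a drug or a conjugated plant phenol returns to the lumen, and lipid exporters of the A and G subfamilies handle cholesterol.

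Cocoa extract changed few of these genes, and the largest change was that of a sterol exporter. ABCG1, which moves cholesterol out of cells toward lipoproteins, rose 2.28-fold, and ABCA1, which loads cholesterol and phospholipid onto apolipoprotein A1, rose 1.30-fold. ABCC1, multidrug resistance protein 1, was 1.32-fold lower with cocoa, and ABCE1, the ATPase that splits ribosomes after termination, was 1.31-fold lower. These 4 of the 42 genes passed the threshold of 0.05 on the adjusted p (limma, Benjamini-Hochberg over all genes), which is 9.52%, against 13.5% of all genes. The 2 increases stand beside 7.36% of all genes called higher and the 2 decreases beside 6.12% called lower. Over the 42 genes the median log2 difference, cocoa minus control, was 0.012, against −0.013 over all genes, and the median size of the difference was 0.095 against 0.099.

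**Figure D1:**
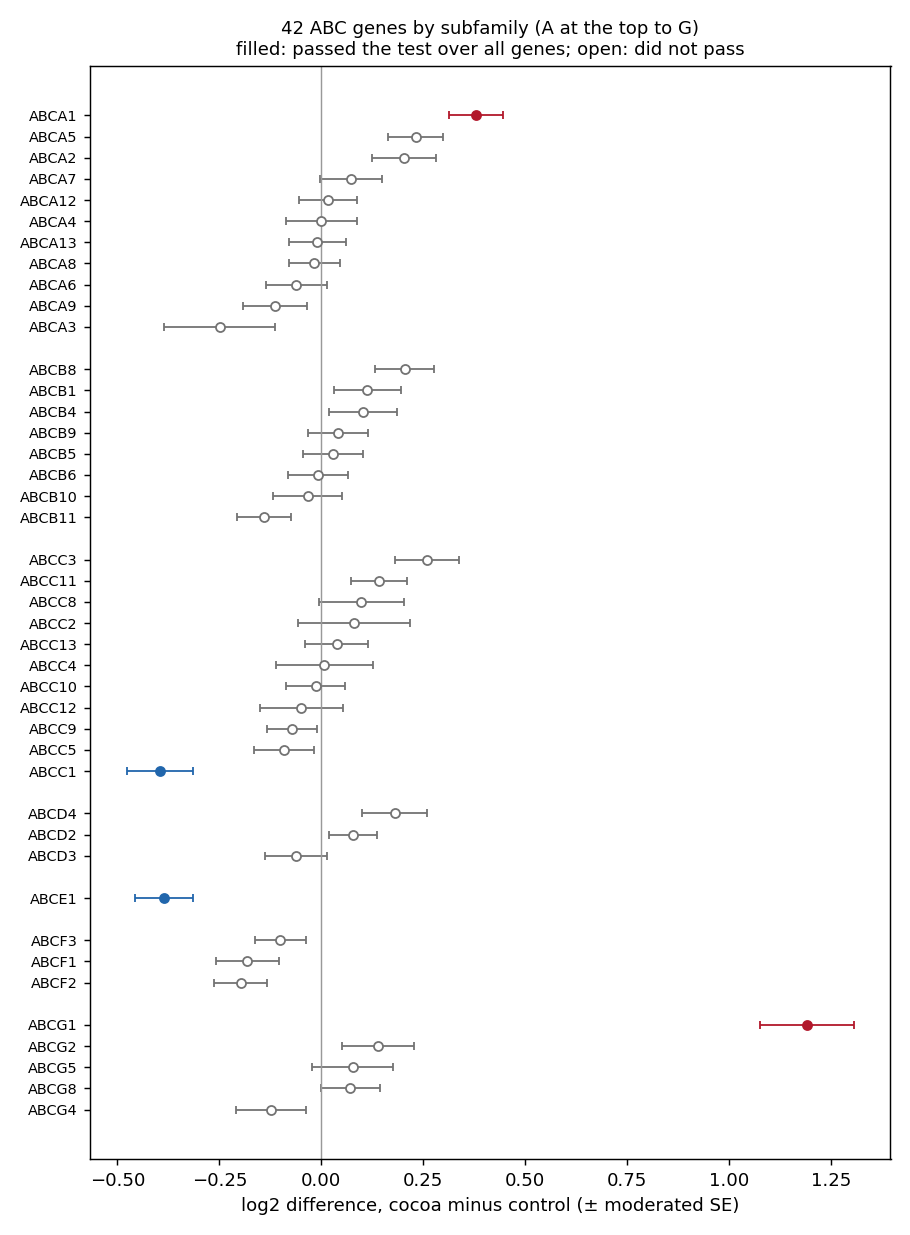
Log2 difference between cocoa and control cultures (horizontal axis, with the moderated SE) for each of the 42 ABC genes, grouped by subfamily from A at the top to G at the bottom, filled where the gene passed the test over all genes. ABCG1 at 1.19 stands far to the right, ABCA1 at 0.38 is the other filled point above 0, ABCC1 at −0.40 and ABCE1 at −0.39 are the filled points below 0, and the other 38 genes lie between −0.25 and 0.26.

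ABCG1 was measured at 0.39, 0.87 and 0.52 in cocoa arrays 1 to 3, against −0.55, −0.55 and −0.69 in control arrays 1 to 3 (centred log2 expression). All 3 cocoa arrays lay above all 3 controls, and cocoa array 2 was the highest. The cocoa cultures averaged 0.60 ± 0.25 and the controls −0.60 ± 0.080 (SD, n = 3 arrays each), a log2 difference of 1.19 (SE 0.12, limma adjusted p = 0.000352). Each of its 4 probe sets passed when all 54613 probe sets were tested, with differences of 2.09, 1.05, 0.97 and 0.65. The probe set with the largest difference, 204567_s_at, read 0.85, 1.38 and 0.89 in the cocoa arrays, against −0.85, −1.09 and −1.20 in the controls, a 4.25-fold difference (SE 0.15 on the log2 scale, adjusted p = 0.000341). The probe sets thus shared the direction and differed in size.

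ABCA1 was measured at 0.11, 0.27 and 0.17 in the cocoa arrays, against −0.21, −0.18 and −0.21 in the controls. The groups did not overlap, and the cocoa arrays were spread more widely (0.18 ± 0.078, against −0.20 ± 0.016, SD, n = 3 each). The log2 difference was 0.38 (SE 0.066, limma adjusted p = 0.006). It came from 2 of its 4 probe sets, 203504_s_at with a difference of 0.72 (SE 0.10, adjusted p = 0.00504) and 203505_at with 0.62 (SE 0.13, adjusted p = 0.0207). In the other 2 the difference was 0.14 (SE 0.11, adjusted p = 0.528) and 0.036 (SE 0.090, adjusted p = 0.877). The mean over the gene was therefore smaller than what its responding probe sets read.

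ABCE1 and ABCC1 were the members that fell. ABCE1 was measured at −0.12, −0.30 and −0.20 in the cocoa arrays, against 0.22, 0.19 and 0.12 in the controls, and the groups did not overlap. The log2 difference was −0.39 (SE 0.070, limma adjusted p = 0.00748), and both of its probe sets passed, at −0.46 (adjusted p = 0.0247) and −0.31 (adjusted p = 0.0381). Both have the suffix _s_at, the mark of probes that can match more than 1 transcript. ABCC1, which exports glutathione and glucuronide conjugates together with many drugs, was measured at −0.10, −0.23 and −0.31 in the cocoa arrays, against 0.10, 0.30 and 0.15 in the controls. These groups did not overlap either, and cocoa array 1 and control array 1 stood nearest to each other. The ABCC1 difference was −0.40 (SE 0.081, limma adjusted p = 0.0122), of which 1 probe set passed (−0.50, adjusted p = 0.0293) and the other did not (−0.29, adjusted p = 0.072). Without control array 2 the adjusted p of ABCC1 was 0.0598, while ABCG1, ABCA1 and ABCE1 passed whichever of the 6 arrays was left out, with a highest adjusted p of 0.00261, 0.0305 and 0.0404.

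The RNA control probe sets differed between arrays in a way that partly followed the groups. The centred log2 signal of 18S ribosomal RNA was −0.51, 3.31 and 1.4 in cocoa arrays 1 to 3, against −1.12, 0.51 and −0.53 in the controls. The signal at the 5′ end minus that at the 3′ end of actin and GAPDH was 0.032, −0.26 and −0.052 in the cocoa arrays, against 0.028, 0.033 and 0.009 in the controls. Cocoa array 2, the highest for ABCG1 and ABCA1 and the lowest for ABCE1, stood farthest apart in both. With the 18S signal as a covariate ABCG1 passed (limma adjusted p = 0.00139), and ABCA1 (0.0502), ABCE1 (0.0593) and ABCC1 (0.0743) missed the threshold with log2 differences of 0.31, −0.31 and −0.38. With the 5′ minus 3′ signal as a covariate ABCC1 missed it (0.067) and the other 3 passed. Without cocoa array 2 all 4 passed.

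**Figure D2:**
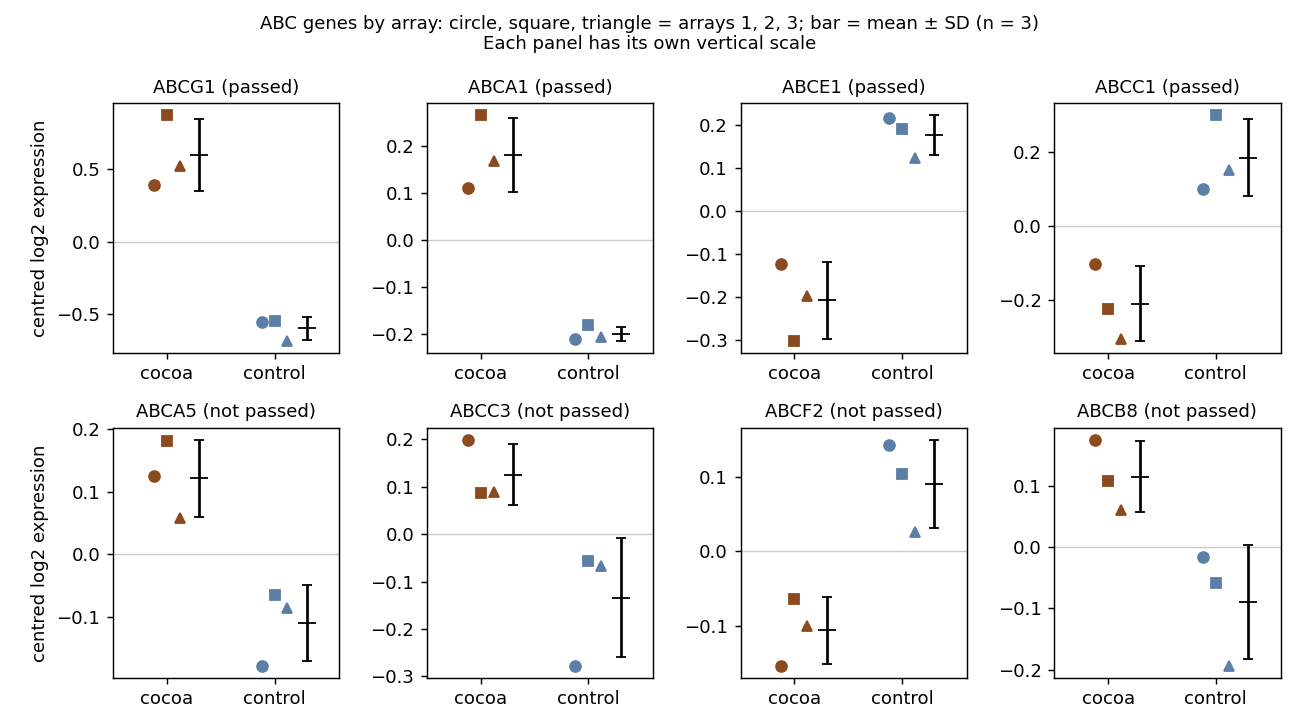
Centred log2 expression (vertical axis, with its own scale in each panel) of the 8 ABC genes with the smallest p, in the 3 cocoa arrays on the left and the 3 control arrays on the right of each panel, with the mean and SD. In all 8 the groups do not overlap, which a choice by the smallest p favours, and 32.5% of all genes have groups that do not overlap. The upper 4 passed the test over all genes and the lower 4 did not.

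Promoter sequences are shown for ABCA1, which rose, and ABCE1, which fell, the 2 of the 4 called genes that had an entry. No entry was available for ABCG1, the gene with the largest change, or for ABCC1. They run 5′ to 3′ from 250 bases before to 50 bases after the RefSeq start (GRCh38.p14). Capitals mark matches, on either strand, to 6 short motifs: the GC box GGGCGG, the CCAAT box CCAAT, the E-box CACGTG, the TATA box TATAAA, the nuclear receptor half-site AGGTCA and the core GCGTG that the aryl hydrocarbon receptor binds. No motif of the 6 contains another.
ABCA1 promoter, chr9:104928106-104928405, minus strand: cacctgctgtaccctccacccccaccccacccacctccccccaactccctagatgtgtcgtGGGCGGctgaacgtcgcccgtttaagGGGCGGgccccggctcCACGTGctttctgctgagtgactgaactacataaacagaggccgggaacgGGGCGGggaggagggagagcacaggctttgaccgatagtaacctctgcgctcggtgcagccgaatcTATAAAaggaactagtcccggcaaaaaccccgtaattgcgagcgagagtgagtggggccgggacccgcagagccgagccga
ABCE1 promoter, chr4:145098061-145098360, plus strand: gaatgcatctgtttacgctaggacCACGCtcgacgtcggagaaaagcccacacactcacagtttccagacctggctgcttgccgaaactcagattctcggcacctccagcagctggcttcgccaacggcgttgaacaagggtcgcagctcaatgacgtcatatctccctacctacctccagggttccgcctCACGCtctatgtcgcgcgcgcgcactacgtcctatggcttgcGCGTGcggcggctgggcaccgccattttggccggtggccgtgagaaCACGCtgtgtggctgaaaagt
The ABCA1 window held 3 GC boxes, whose first bases lay at −189, −163 and −97 from the start, an E-box at −147 and a TATA box at −31. In the ABCE1 window 4 matches to GCGTG were found, at −226, −59, −17 and 29, and 0 matches to the other 5 motifs. Of the 42 ABC genes 33 had a sequence in the promoter table. Repeat entries of a gene were dropped for these 33 only, and all promoters were not chosen by gene type, so the sets compared may be unlike. A GC box was found in 54.5% of those 33 and in 45% of all 35116 promoters, a CCAAT box in 18.2% and 34.6%, an E-box in 12.1% and 7.26%, and a TATA box in 12.1% and 11.5%. The half-site AGGTCA was found in 6.06% of the 33 and 13.8% of all promoters, and GCGTG in 39.4% and 36.5%. A match to such short letters is a description of the sequence and does not show that a factor binds there. Only exact matches were marked, so the lack of a match does not show that a site is absent.

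Within the lipid-transporting A subfamily, 1 of 11 genes rose and 10 did not pass (9.09% changed, against 13.5% of all genes). ABCA5, a transporter of endosomes and lysosomes, was measured at 0.13, 0.18 and 0.058 in the cocoa arrays, against −0.18, −0.065 and −0.086 in the controls, without overlap. Its difference of 0.23 (SE 0.067) had a limma adjusted p of 0.0517, and 1 of its 2 probe sets passed (0.36, adjusted p = 0.0223). ABCA5 also passed as a gene when the arrays were centred on their medians or quantile-normalised. ABCA3, which fills lamellar bodies with surfactant lipid in lung, had the second largest difference in size, −0.25 (SE 0.14, adjusted p = 0.286), with −0.044, −0.30 and 0.044 in the cocoa arrays, against 0.25, 0.35 and −0.15 in the controls. Those groups overlapped through control array 3. ABCA2, an endolysosomal lipid transporter, had 3 probe sets that did not share a sign. Its probe set 212772_s_at was measured at 0.39, 0.57 and 0.10 in the cocoa arrays, against −0.10, −0.22 and −0.13 in the controls, and passed at 0.50 (SE 0.12, adjusted p = 0.0364). Probe set 210100_s_at had 0.23, 0.016 and −0.0058 with cocoa, against −0.11, 0.0058 and −0.63 in the controls, a difference of 0.32 (SE 0.16, adjusted p = 0.284). Probe set 210099_at had −0.27, −0.19 and 0.067 with cocoa, against −0.023, 0.25 and 0.023 in the controls, a difference of −0.21 (SE 0.11, adjusted p = 0.328). The groups were apart in the first of these and overlapped in the other two. The gene mean of ABCA2 was 0.20 (SE 0.078, adjusted p = 0.126). ABCA8, ABCA9 and ABCA6 lie side by side in the RefSeq gene order, with 1 protein-coding gene between ABCA6 and ABCA5. They had differences of −0.017, −0.11 and −0.061 (adjusted p of at least 0.421), and each had cocoa and control arrays that overlapped. The remaining members ABCA4, ABCA7, ABCA12 and ABCA13 lay between −0.010 and 0.073.

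None of the 8 measured genes of the B subfamily passed as a gene, against 13.5% of all genes. An unadjusted limma p below 0.05 was found in 1 of the 8 and in 5368 of all 19775 genes. ABCB8, a transporter of the mitochondrial inner membrane, came nearest, with 0.18, 0.11 and 0.060 in the cocoa arrays, against −0.015, −0.059 and −0.19 in the controls, a difference of 0.20 (SE 0.072, adjusted p = 0.0978). Of its 2 probe sets 229539_at passed at 0.34 (adjusted p = 0.0471). ABCB11, the bile salt export pump, was measured at −0.058, −0.018 and −0.16 with cocoa, against 0.062, 0.034 and 0.087 in the controls, a difference of −0.14 (SE 0.066, adjusted p = 0.209). Its groups did not overlap. ABCB1, P-glycoprotein, was measured at −0.0091, 0.013 and 0.24 in the cocoa arrays, against −0.036, 0.028 and −0.082 in the controls, so that cocoa array 3 alone stood above every control. The ABCB1 difference was 0.11 (SE 0.082, adjusted p = 0.441), and its 2 probe sets read 0.12 and 0.11. The probe set 209994_s_at, which carries the symbols of both ABCB1 and its neighbour ABCB4 and so belongs to neither here, read 0.077 (adjusted p = 0.644). ABCB4, a phospholipid transporter of liver bile canaliculi, ABCB5, ABCB9 and ABCB10 had differences between −0.034 and 0.10.

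ABCB6, a transporter of porphyrins, had a gene difference of −0.0075 (SE 0.073, adjusted p = 0.968) that hid 2 opposite readings. Probe set 203192_at was measured at 0.24, 0.41 and 0.12 with cocoa, against −0.13, −0.12 and −0.24 in the controls, and rose by 0.42 (SE 0.094, limma adjusted p over probe sets = 0.0294). Probe set 203191_at was measured at −0.20, −0.18 and −0.14 with cocoa, against 0.45, 0.14 and 0.21 in the controls, and fell by 0.44 (SE 0.096, adjusted p = 0.0286). In each of the 2 the groups did not overlap, in opposite directions. The table does not show which part of the transcript either probe set reads, and which of them follows the ABCB6 messenger RNA was not tested.

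Among the 11 members of the C subfamily, ABCC1 fell and 10 genes did not pass (9.09% changed, against 13.5% of all genes). ABCC3, which exports glucuronides across the basolateral membrane, was measured at 0.20, 0.087 and 0.089 in the cocoa arrays, against −0.28, −0.056 and −0.066 in the controls. The groups did not overlap, and control array 1 was the lowest by far. The difference was 0.26 (SE 0.080, adjusted p = 0.0621). Of its 5 probe sets 208161_s_at and 209641_s_at passed, at 0.49 (adjusted p = 0.0123) and 0.48 (adjusted p = 0.0247), and the other 3 read 0.21, 0.069 and 0.045. ABCC2, which exports conjugates across the apical membrane, varied widely among replicates, with −0.038, 0.25 and −0.16 in the cocoa arrays, against 0.038, 0.12 and −0.35 in the controls. Its difference was 0.080 (SE 0.14, adjusted p = 0.782), well within that spread.

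ABCC4, an exporter of cyclic nucleotides and prostaglandins, was measured at 0.19, −0.34 and 0.0058 with cocoa, against −0.092, −0.022 and −0.057 in the controls. Cocoa array 2 stood apart because of 2 of its 4 probe sets, 1554918_a_at at −0.73 and 1555039_a_at at −0.86 on that array. The gene difference was 0.0069 (SE 0.12, adjusted p = 0.982), while probe set 203196_at read 0.30 (SE 0.076, adjusted p = 0.0503) with groups that did not overlap. ABCC4 passed at 0.30 (adjusted p = 0.0271) in the fit without probe sets that may match several transcripts or isoforms. ABCC5, a related exporter of nucleotide analogues, read 0.027, −0.14 and −0.033 in the cocoa arrays, against −0.042, 0.055 and 0.11 in the controls, a difference of −0.091 (SE 0.073, adjusted p = 0.494). Its groups overlapped. ABCC13, a transcribed pseudogene in RefSeq, had a difference of 0.038 (SE 0.077, adjusted p = 0.822), and the sulfonylurea receptors ABCC8 and ABCC9 had 0.098 and −0.071 (adjusted p = 0.625 and 0.525). ABCC10, ABCC11 and ABCC12 differed by −0.013, 0.14 and −0.049. KCNJ11 and KCNJ8, the potassium channel subunits that pair with ABCC8 and ABCC9, did not pass either, with differences of 0.16 and −0.046.

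**Figure D3:**
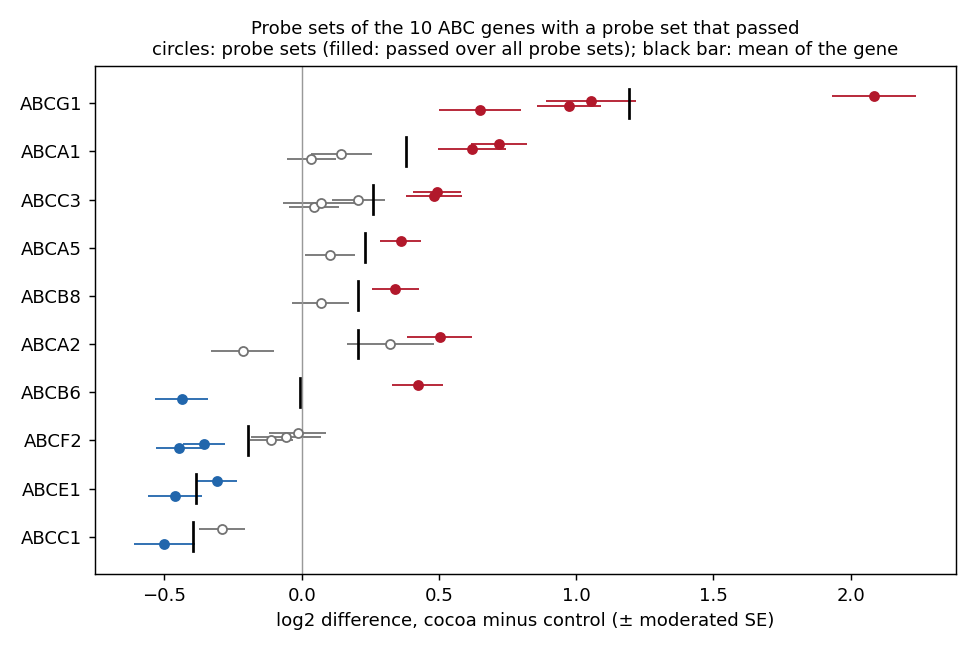
Log2 differences between cocoa and control (horizontal axis, with the moderated SE) of every probe set of the 10 ABC genes with at least 1 probe set that passed, filled where it passed over all probe sets, with a black bar for the mean of the gene. The 4 probe sets of ABCG1 run from 0.65 to 2.09, those of ABCE1 lie at −0.46 and −0.31, and the 2 of ABCB6 lie at −0.44 and 0.42 around a mean near 0.

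Over the family, 18 of 96 probe sets (18.8%) passed, 12 higher and 6 lower, and they belong to 10 genes. On the array as a whole 7.98% of probe sets passed, 4.68% higher and 3.3% lower. The 2 shares come from unlike sets. Each ABC probe set carries 1 symbol, while the 54613 on the array include 11721 without a symbol and 1801 with several. Probe sets of the same gene are also not independent, and 4 of the 18 belong to ABCG1. Counted by gene, 9.52% of the ABC genes passed, against 13.5% of all genes. Among 29 ABC genes read by more than 1 probe set, the signs were alike in 15 and mixed in 14. Changed probe sets were found besides the 4 called genes in ABCA2, ABCA5, ABCB6, ABCB8, ABCC3 and ABCF2. This count depended strongly on single arrays. It fell to 5 without control array 2, to 6 without cocoa array 2, to 7 without control array 1 or 3 and to 11 without cocoa array 3. It was 4 when the 18S signal was a covariate and 5 when the 5′ minus 3′ signal was. The number of lower calls was 0 with either covariate and 0 without control array 1 or 2, and it was 1 without cocoa array 2 or 3 or control array 3.

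The 3 measured members of the D subfamily did not pass, against 13.5% of all genes that did. An unadjusted limma p below 0.05 was found in 0 of the 3 and in 5368 of all 19775 genes. ABCD4, which takes part in the release of cobalamin from lysosomes, was measured at 0.017, 0.16 and 0.21 with cocoa, against −0.11, −0.11 and 0.066 in the controls, a difference of 0.18 (SE 0.080, adjusted p = 0.184), with overlap. ABCD2, a peroxisomal transporter of very long chain fatty acids, had 0.059, 0.021 and 0.041 in the cocoa arrays, against −0.045, −0.048 and −0.021 in the controls, a difference of 0.079 (SE 0.059, adjusted p = 0.462). Its groups did not overlap, though they lay close together. ABCD3, an abundant fatty acid transporter of the peroxisomal membrane, differed by −0.061 (SE 0.076, adjusted p = 0.685). Of 7 measured genes of peroxisome import and of their lysosomal partners 0 passed, against 13.5% of all genes. Their differences ran from −0.15 to 0.24, with a median of 0.031. An unadjusted limma p below 0.05 was found in 2 of the 7 and in 5368 of all 19775 genes. LMBRD1, among the 7, had a probe set that passed, 218191_s_at at 0.36 (limma adjusted p = 0.0181). Its other probe set read 0.12 (adjusted p = 0.409).

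The ribosome-bound E and F members lay below 0 in all 4 cases, and of these ABCE1 passed. ABCF2 was measured at −0.15, −0.064 and −0.10 in the cocoa arrays, against 0.14, 0.10 and 0.026 in the controls, a difference of −0.20 (SE 0.065, limma adjusted p = 0.0801). Its probe sets 207622_s_at and 209247_s_at passed, at −0.45 (adjusted p = 0.0149) and −0.36 (adjusted p = 0.0256), and the other 3 lay between −0.11 and −0.014. ABCF1, which binds initiation factor eIF2, was measured at −0.078, −0.0032 and −0.24, against 0.0032, 0.11 and 0.11 in the controls (difference −0.18, SE 0.078, adjusted p = 0.17). ABCF3 differed by −0.10 (SE 0.063, adjusted p = 0.357). In all 4 genes every cocoa array lay below every control. Over the 42 ABC genes the groups did not overlap in 15 (35.7%), 8 with cocoa above and 7 with cocoa below, against 32.5% of all genes (15.4% with cocoa above and 17% with cocoa below).

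Genes that act with the E and F members on the ribosome had gene differences below 0 in 8 of 8 cases, and 53.6% of all genes had one. Of them, 2 fell, 0 rose and 6 did not pass, with a median log2 difference of −0.18, against −0.013 over all genes, of which 6.12% were called lower. The gene means cover probe sets that differ. In GSPT1, not called as a gene, 201912_s_at at −0.58 (limma adjusted p = 0.0133) and 215438_x_at at −0.39 (0.0273) passed. Its 225276_at read 0.18 (0.204), with every cocoa array above every control, and the rest lay between −0.22 and −0.13. EIF2S1, not called either, had 201144_s_at at −0.44 (0.0105), and its others read −0.12 and −0.035. EIF2AK4, a kinase of eIF2 that senses uncharged tRNA, had a gene difference of −0.17 from 2 probe sets that passed in opposite directions, 225164_s_at at 0.63 (adjusted p = 0.0169) and 237145_at at −0.96 (adjusted p = 0.000876). ETF1, the release factor that reads stop codons, was measured at −0.12, −0.11 and −0.22 with cocoa, against 0.15, 0.098 and 0.11 in the controls, and differed by −0.27 (SE 0.064, adjusted p = 0.0222). HBS1L, which with PELO rescues stalled ribosomes before ABCE1 splits them, was measured at −0.042, −0.25 and −0.12, against 0.11, 0.12 and 0.12 in the controls (−0.26, SE 0.072, adjusted p = 0.0451). PELO itself differed by −0.096 (SE 0.069, adjusted p = 0.435). Neither call was stable: with 1 array left out the adjusted p of ETF1 and HBS1L reached 0.0796 and 0.14, and it was 0.0998 and 0.244 when the 18S signal was a covariate.

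In the G subfamily ABCG1 rose and the other 4 measured genes did not pass (20% changed, against 13.5% of all genes). ABCG2, the breast cancer resistance protein, which exports many drugs and plant compounds from the apical membrane, was measured at 0.043, −0.043 and 0.12 in the cocoa arrays, against 0.069, −0.14 and −0.24 in the controls. The groups overlapped and the difference was 0.14 (SE 0.089, adjusted p = 0.371). ABCG5 and ABCG8, neighbours in the genome whose proteins pair to return plant sterols and cholesterol to the lumen, had differences of 0.077 (SE 0.099, adjusted p = 0.698) and 0.072 (SE 0.073, adjusted p = 0.607). ABCG5 was measured at −0.030, 0.22 and −0.017 with cocoa, against −0.19, 0.017 and 0.11 in the controls, and ABCG8 at −0.044, 0.12 and 0.043, against −0.11, −0.043 and 0.054. In both genes the arrays of the groups were intermingled. ABCG4, which is close to ABCG1 in sequence, differed by −0.12 (SE 0.086, adjusted p = 0.423).

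PLTP and SOAT1, genes of lipid handling around the sterol exporters, were higher with cocoa as well. Of 9 measured cholesterol and phospholipid partners 2 rose, 0 fell and 7 did not pass, beside 7.36% of all genes called higher, with a median log2 difference of 0.095. PLTP, which transfers phospholipid to lipoproteins, rose 1.89-fold, with 0.33, 0.69 and 0.43 in the cocoa arrays, against −0.33, −0.43 and −0.55 in the controls (difference 0.92, SE 0.10, limma adjusted p = 0.000634). SOAT1, which esterifies cholesterol for storage, rose 1.42-fold, with 0.27, 0.26 and 0.38, against −0.17, −0.21 and −0.22 in the controls (0.50, SE 0.065, adjusted p = 0.00143). The groups did not overlap in either gene. PLTP rests on 1 probe set, and each of the 3 probe sets of SOAT1 passed. Both genes kept their call with the 18S covariate (adjusted p = 0.00601 and 0.0116). APOA1, the acceptor of lipid from ABCA1, differed by −0.19 (SE 0.063, adjusted p = 0.0837). MYLIP, a ligase that degrades the LDL receptor, differed by 0.20 (SE 0.070, adjusted p = 0.0909), with all 3 cocoa arrays above all 3 controls. That mean covers 6 probe sets that differ. Passing upward were 223130_s_at at 0.58 (adjusted p = 0.00424), 228098_s_at at 0.47 (0.0176) and 223129_x_at at 0.40 (0.029). Probe set 228097_at read −0.50 (adjusted p = 0.0792), with every cocoa array below every control. The remaining readings were 0.28 and −0.0091, and neither passed.

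Of 14 measured regulators of ABC genes 1 rose and 13 did not pass (7.14% changed, against 13.5% of all genes), with a median of −0.021. The gene that rose was AHR, the aryl hydrocarbon receptor, with 0.072, 0.33 and 0.35 in the cocoa arrays, against −0.11, −0.072 and −0.12 in the controls (difference 0.35, SE 0.084, limma adjusted p = 0.0236). Cocoa array 1 lay nearer to the controls than to the other cocoa arrays. The AHR call was lost in 5 of the 6 fits that left out 1 array, with adjusted p from 0.00504 to 0.0777, and was not made with the 18S covariate (0.154). NR1H3, the sterol-sensing liver X receptor alpha, had 0.26, 0.015 and 0.078 with cocoa, against −0.015, −0.15 and −0.24 in the controls, a difference of 0.25 (SE 0.088, adjusted p = 0.0936). SREBF1, a regulator of lipid synthesis, differed by 0.21 (SE 0.10, adjusted p = 0.215). NFE2L2, the oxidative stress regulator NRF2, differed by −0.073 (SE 0.077, adjusted p = 0.622). AHR rests on 1 probe set, 202820_at, whose limma adjusted p over all probe sets was 0.0557. Regulators not called as genes also held probe sets that passed. In PPARA these were 223437_at at 0.495 (adjusted p = 0.0242) and 226978_at at 0.51 (0.015). In PPARD 242218_at read −0.76 (0.00573), and in ARNT 210828_s_at read −0.43 (0.0355). The other probe sets of these genes did not pass and had mixed signs.

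The other transporters of drugs, bile acids and organic anions held the largest change of the related genes. Of 12 measured 2 rose, 1 fell and 9 did not pass (25% changed, against 13.5% of all genes), and the median log2 difference was 0.031. SLC10A2, the sodium-dependent bile acid carrier of the apical membrane of the ileum, rose 3.42-fold, with 0.73, 1.14 and 1.21 in the cocoa arrays, against −0.73, −0.79 and −0.73 in the controls (difference 1.78, SE 0.12, limma adjusted p = 4.11e-05). It kept its call with the 18S covariate (adjusted p = 0.000534) and rests on 1 probe set. SLC51B, a subunit of the basolateral bile acid exporter, rose 1.42-fold, with 0.29, 0.11 and 0.17, against −0.49, −0.11 and −0.36 in the controls (0.51, SE 0.099, adjusted p = 0.00989), and did not pass with the 18S covariate (adjusted p = 0.0581). SLC51B and its partner subunit SLC51A each rest on 1 probe set. SLC51A differed by −0.048 (SE 0.11, adjusted p = 0.838). The gene that fell was SLCO4A1, an organic anion transporter, at −0.25, 0.026 and −0.33 with cocoa, against 0.20, 0.13 and 0.096 in the controls (−0.33, SE 0.094, adjusted p = 0.0497), and its adjusted p was up to 0.148 in the fits without 1 array.

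**Figure D4:**
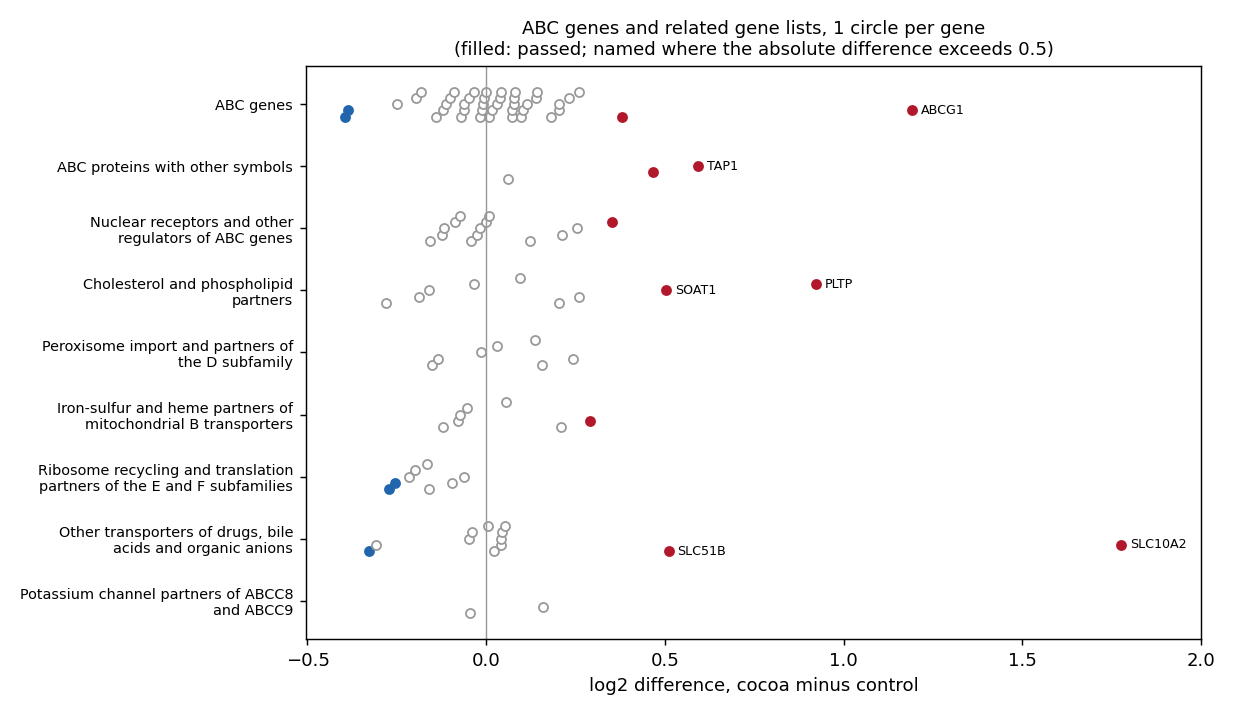
Log2 differences between cocoa and control (horizontal axis) for the 42 ABC genes and for 8 lists of related genes, 1 circle per gene and filled where the gene passed over all genes. SLC10A2 at 1.78, ABCG1 at 1.19 and PLTP at 0.92 lie farthest to the right. The gene means of all 8 translation partners of the E and F subfamilies lie below 0, those of EIF2AK4 and GSPT1 as means of probe sets on both sides of 0.

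Of the 3 ABC proteins that carry other symbols, 2 rose and 1 did not pass, beside 7.36% of all genes called higher. TAP1 and TAP2, the pair that pumps peptides into the endoplasmic reticulum for MHC class I, both rose, by 0.59 (SE 0.11, limma adjusted p = 0.00658) and 0.47 (SE 0.075, adjusted p = 0.00428) on the log2 scale. TAP1 was measured at 0.13, 0.54 and 0.33 with cocoa, against −0.13, −0.33 and −0.32 in the controls, and TAP2 at 0.17, 0.40 and 0.20, against −0.21, −0.23 and −0.20. The groups did not overlap in either gene. With the 18S covariate TAP2 passed (adjusted p = 0.0362) and TAP1 did not (0.0548). TAP1 rests on 1 probe set. Of the 4 probe sets of TAP2, 208428_at did not pass (0.092, adjusted p = 0.627), and the others passed at 0.51, 0.48 and 0.78. CFTR, the chloride channel of the C subfamily, had a difference of 0.062 (SE 0.072, adjusted p = 0.66) over 6 probe sets of mixed sign. Its probe set 205043_at was measured at 0.21, 0.26 and 0.32 with cocoa, against −0.36, −0.26 and −0.21 in the controls, and passed at 0.54 (SE 0.079, adjusted p = 0.00573). Probe set 215703_at read −0.27 (SE 0.081, adjusted p = 0.0829), also without overlap. Among 7 measured iron-sulfur and heme genes, FECH, which inserts iron into protoporphyrin, rose by 0.29 (SE 0.069, adjusted p = 0.0231), with 0.11, 0.26 and 0.096 in the cocoa arrays, against −0.11, −0.15 and −0.14 in the controls. Without 1 array the limma adjusted p of FECH was up to 0.0962. Adjusting for 18S raised it to 0.14, and adjusting for the end-to-end signal of actin and GAPDH raised it to 0.109. Of the 3 FECH probe sets 203115_at passed at 0.48 (adjusted p = 0.0102). Its 203116_s_at (0.24, adjusted p = 0.0786) and 229696_at (0.15, adjusted p = 0.481) did not. The other 6 genes did not pass (median of the 7 −0.055, 14.3% of them changed, against 13.5% of all genes). CIAO1, among those not called, had probe sets that passed in opposite directions. They were 203536_s_at at −0.365 (limma adjusted p = 0.0172) and 217501_at at 0.374 (adjusted p = 0.0398), around a gene difference of 0.054.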

How the data were processed

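Expression was measured in 3 cocoa and 3 control HT29 cultures on Affymetrix U133 Plus 2.0 arrays. The authors produced the deposited log2 values with RMA, per the submitters' processing notes. GeneSpring GX is named in the series text; no version or filter is given in the sources used here. Base 2 is inferred from RMA. The values run from −2.42 to 4.02 with a median of 0 in each probe set, so level, background and detection are unknown, and the number of arrays limits the precision. Nothing states that the cultures were grown separately in time, so p-values measure the spread between these arrays.

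Of 54613 probe sets without the 62 controls, 41091 carried 1 gene symbol, 1801 several and 11721 none. Probe sets with 1 symbol were averaged per gene. All 42 ABC genes matched RefSeq by gene identifier. Cocoa minus control was tested over all genes, and separately over all probe sets, with limma 3.58.1 in R 4.3.3 (lmFit, eBayes; Benjamini-Hochberg adjustment, called below 0.05); SE is the moderated standard error. Values per array are given for ABC genes that passed, the 2 largest differences of each subfamily, the probe sets of genes where 1 passed and another had the opposite sign (ABCA2, ABCB6), a fixed set of well known pumps, and related genes that passed; ABCA5, ABCA8, MYLIP, NR1H3 and other genes outside this rule were named after their values were seen. The members, lists and tests were chosen with earlier results of these data known. No 2 arrays were copies (SD of the gene differences between 2 arrays 0.174 to 0.198 in cocoa, 0.14 to 0.161 in controls). On simulated data for this comparison, 50 of 19775 genes were changed at each size. Of those, 36% at a log2 change of 0.3 and 100% at 0.5 were recovered. In the data 2666 genes passed, a setting unlike the simulated one, so these shares may not hold for the data. Promoters came from RefSeq (GRCh38.p14). Alternatives are given in the closing section.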

Additional observations from a re-analysis of the deposited data

How the results depend on the processing

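Of the 4 ABC calls, 4 were kept with a replicate block, a robust prior, array weights and the median of probe sets, and at a fold of at least 1.2. With quantile normalisation or median-centred arrays 5 ABC genes changed, the 4 and ABCA5. Without probe sets of the suffixes _s_at, _x_at and _a_at 35 of the 42 genes were left and 5 changed: ABCG1, ABCA1, ABCC1, ABCB8 and ABCC4. ABCE1 was not measured there. With the 18S covariate 1 ABC gene changed, and 3 with the 5′ minus 3′ covariate, and the count was 3 to 4 without 1 array. The number of changed genes on the array was 1103 with the 18S covariate, 1411 with the 5′ minus 3′ covariate and 1315 to 2881 without 1 array (1315 without control array 2, 1623 without control array 1), against 2666. The 18 changed ABC probe sets became 4 with the replicate block, 4 with the 18S covariate, 5 with the 5′ minus 3′ covariate and 5 to 14 without 1 array. The 11 changed related genes became 7 with the replicate block, 4 with the 18S covariate, 7 with the 5′ minus 3′ covariate, 7 without the suffixed probe sets and 6 to 13 without 1 array (6 without any 1 control array, 7 without cocoa array 3). Causes of these shifts were not tested. Replicate numbers are shared by the groups, and the correlations of the deviations of same-numbered arrays were −0.12, −0.0089 and −0.0031. The 18S signal was lowest in array 1 and highest in array 2 in both groups. With 3 arrays per group these values cannot decide whether the numbers pair the samples. With the replicate block 1947 genes changed on the array. Small differences changed sign: ABCC2 was −0.0056 with array weights, −0.060 with the 18S covariate, −0.039 with the 5′ minus 3′ covariate and −0.062 to 0.17 without 1 array. ABCC4 was −0.0028 with array weights, −0.0080 with the median of probe sets and −0.11 to 0.15 without 1 array, and ABCG5 was −0.049 with the 18S covariate, −0.034 with the 5′ minus 3′ covariate and −0.0078 to 0.14 without 1 array. A filter on dim probe sets was not run, since the table has no levels.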

Other observations

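Besides the 96 probe sets of the 42 genes, 5 further probe sets carry an ABC symbol, 2 that match several genes and 3 of pseudogenes. Of these 0 passed in limma. ABCA17P read −0.23 (adjusted p = 0.423), ABCC6P1 0.12 (adjusted p = 0.609), ABCA11P 0.065 (adjusted p = 0.732), and the probe set shared by ABCB8 and ASIC3 −0.11 (adjusted p = 0.685).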
